A study of Mus musculus with 5 samples.

Results

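Macrophages grown from C3H/HeJ bone marrow were compared with whole embryos, gene by gene, on 4 of the 5 two-colour cDNA arrays of the series. Human CSF-1, which drives macrophage growth, had been used to differentiate them in culture. They were taken without lipopolysaccharide (LPS; 0 h) or after 2, 7 or 21 h in 10 µg/ml LPS of S. minnesota. C3H/HeJ mice carry a Tlr4 mutation that makes their macrophages respond poorly to LPS. The other channel of every array held total RNA of C57BL6/J whole embryos of 17.5 days, so the embryo RNA differed from the macrophage RNA in strain as well as in tissue. The 4 arrays were chosen by their labelled time, and the 0.5 h array was left out because it followed the others poorly. Each time was 1 array, so the 4 arrays were no replicates of a group, and nothing was tested. Each gene is described by its mean log ratio and its SD over the 4 arrays, an SD that holds LPS time, labelling and hybridisation together.

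Macrophages are phagocytes of the innate immune system. They take up particles through Fc and other receptors, digest them in acidified lysosomes, present peptides on MHC molecules and recycle iron and lipid. A late mouse embryo is mainly muscle, cartilage, connective tissue, skin, nervous tissue and a liver that makes both plasma proteins and red cells. A ratio between these RNAs therefore sets what 1 cell type expresses against a mixture of tissues. In the mixture, fewer cells of a type and less RNA per cell cannot be told apart, and embryos hold macrophages of their own. A ratio is no level: a gene that both RNAs hold in like amounts reads near 0.

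Of 19828 probes, 14759 carried 1 gene symbol, and 8839 genes had a value on all 4 arrays, 5718 of them on 1 probe. Values are centred on each array's median over these genes and read as base 10 logs, a base that the sources do not state. The direction is likely macrophage over embryo, since the labels list the macrophage RNA as channel 1 and macrophage genes read positive. Correlations between pairs of the 4 arrays across genes ran from 0.61 (7 and 21 h) to 0.84 (0 and 2 h), and those with the 0.5 h array from 0.40 to 0.58 (Pearson, across genes, which are not replicates). The SD across genes was largest on the 2 h array (0.39), beside 0.27 to 0.30 on the other 3. The arrays were least alike among probes numbered 17501 to 19828, where the 0 and 21 h arrays correlated at 0.30, beside 0.70 to 0.88 in other stretches of 2500 probes. Only 8 genes rested on 1 probe there. No spot intensities were used, so which ratios come from dim spots is unknown.

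Blood cell and macrophage genes were among the highest and genes of red cells, liver, muscle and matrix among the lowest. Other genes, such as Xist and Rras, stood at the ends too and are described below. Lyz2, the lysozyme of myeloid cells, read 1.12 without LPS and 1.21, 1.32 and 1.20 after 2, 7 and 21 h (3 probes), a mean of 1.21 ± 0.08 (SD over the 4 arrays, as throughout) or 16.3-fold if the base is 10. Lcp1, an actin-bundling protein of leukocytes, read 1.19, 1.44, 1.16 and 1.37 at 0, 2, 7 and 21 h, with a mean of 1.29 ± 0.14. Lilrb4a, an inhibitory receptor of myeloid cells, read 1.49, 1.81, 1.60 and 1.51, with a mean of 1.60 ± 0.15. All 3 macrophage genes stayed far above 0 on every array. Hbb-b1, an adult beta globin, read -1.89, -2.12, -1.75 and -1.84 (21 probes), with a mean of -1.90 ± 0.16. Alb, the serum albumin of hepatocytes, read -1.78, -1.99, -1.63 and -1.56 (6 probes), with a mean of -1.74 ± 0.19. Both embryo markers were lowest at 2 h, the array with the widest spread of ratios, and no array of any of the 5 markers came near 0. Lyz2, Lilrb4a and Hbb-b1 have near-identical copies in the genome, as do the ferritin genes, so a cDNA probe of these may also report a copy.

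**Figure D1:**
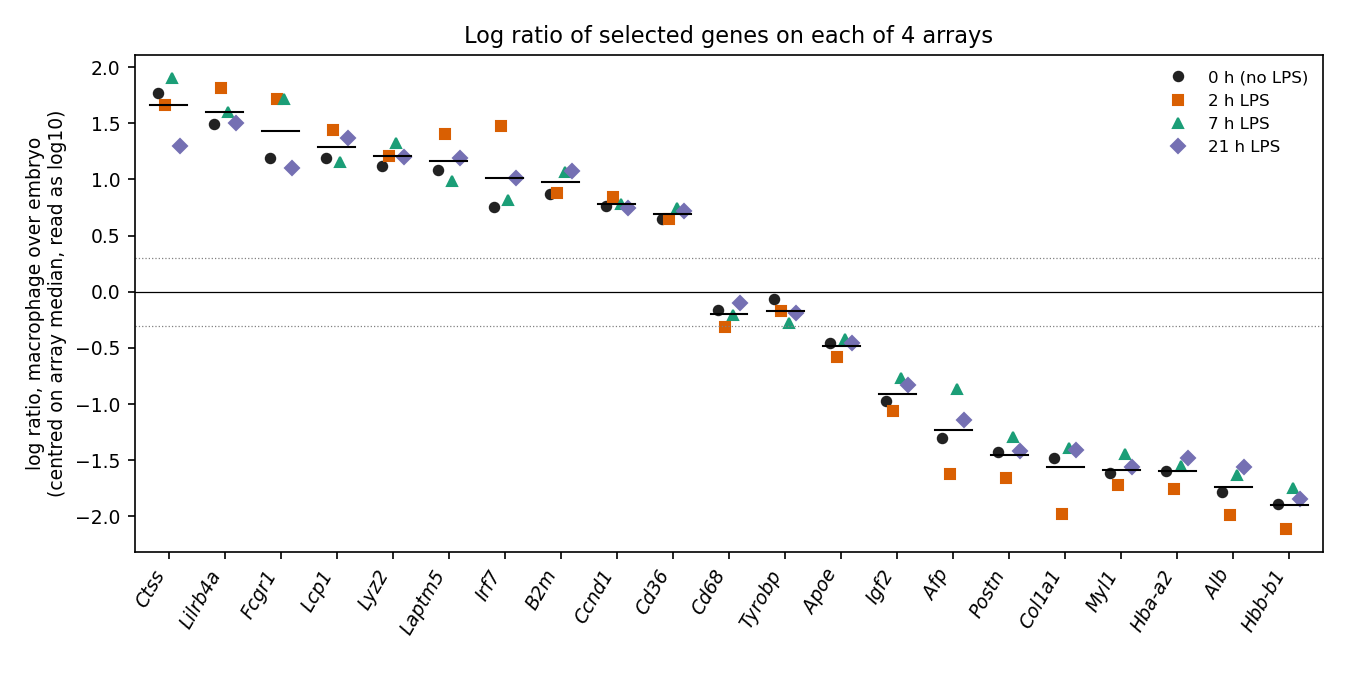
Centred log ratio (vertical axis, read as log10; positive is, as the likely direction, macrophage over embryo) of 21 genes on the 0, 2, 7 and 21 h arrays. Each symbol is 1 array, the horizontal bar is the mean, and dotted lines mark a 2-fold ratio. Ctss to Cd36 lie above the upper line on all 4 arrays and Apoe to Hbb-b1 below the lower line. The means of Cd68 and Tyrobp lie just under 0, and Cd68 passes the lower line on the 2 h array.

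By a size rule of at least 2-fold (0.301 if the base is 10) in the same direction on each of the 4 arrays, 282 genes (3.19%) were higher in macrophage RNA and 393 (4.45%) lower. Higher and lower mean this below. Means ran from -2.21 to 1.66, with 22 genes at 1 or above and 64 at -1 or below. Low ratios thus reached further than high ones. Sign held on all 4 arrays for 5049 genes (57.1%), with 2481 above 0 and 2568 below 0. The median SD over arrays was 0.0928. Of the sum of squares of all log ratios, 79.2% lay between genes and the rest between arrays within genes.

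**Figure D2:**
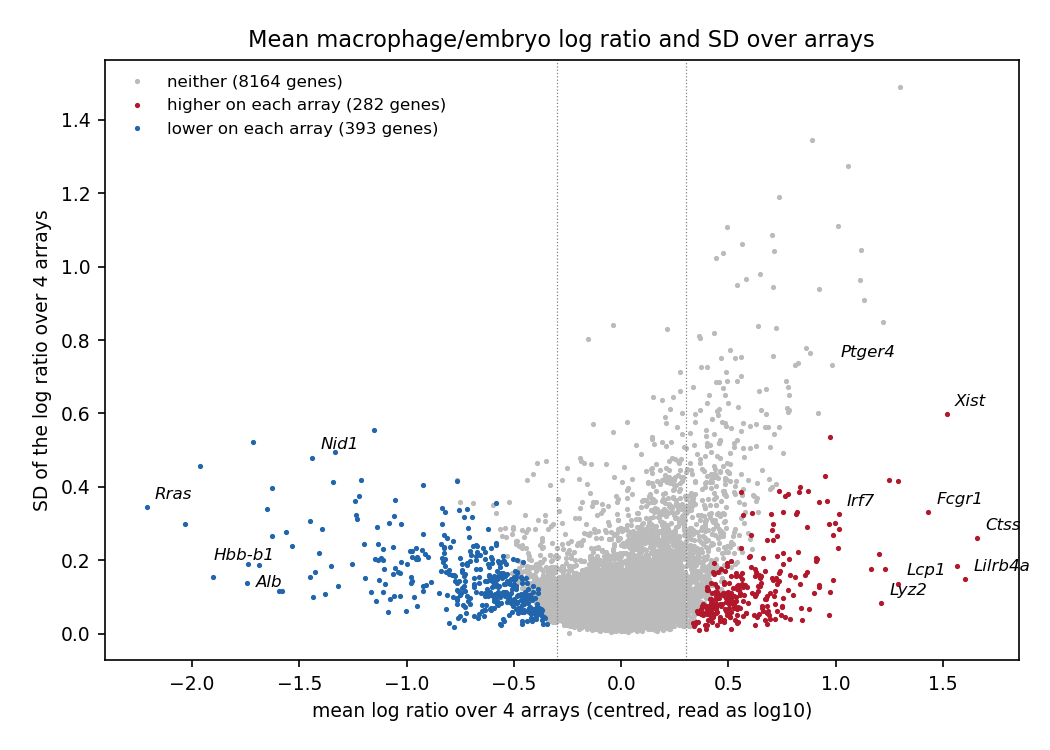
Mean log ratio over the 4 arrays (horizontal axis, read as log10) and its SD over arrays (vertical axis) for 8839 genes. Red points are the 282 genes higher and blue points the 393 genes lower by the size rule on each array. Genes of large mean and large SD that met no rule, such as Ptger4, lie at the upper right.

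The gene lists used here and below were chosen with earlier results of these data known. Their medians and counts are thus descriptions and no independent support. Genes shared by white blood cells were mostly higher. Of 13 measured pan-leukocyte genes 10 were higher and none lower, with a median of 0.64. Laptm5, a lysosomal membrane protein of blood cells, read 1.08, 1.40, 0.99 and 1.19, and Cd53, a tetraspanin of leukocytes, 0.78, 0.79, 0.93 and 0.85. Dock2, which leukocytes need to migrate, averaged 0.79 ± 0.16, Arhgdib 0.75 ± 0.07, and Rac2, a GTPase of blood cells, 0.48 ± 0.11 over 4 probes. Kinases and adaptors of leukocyte receptors had a median of 0.53, with 5 of 10 higher and none lower. Syk, the kinase that Fc receptors recruit, averaged 0.91 ± 0.20 and was lowest at 21 h (0.61), and Vav1, an exchange factor below it, averaged 0.68 ± 0.08. Skap2, an adaptor, averaged 0.83 ± 0.13, and Lat2, another, 0.73 ± 0.06. Btk (0.02) and Inpp5d (-0.02), which also act in blood cells, read near 0 on their 1 probe each. Across the 43 genes of the 4 leukocyte lists the median was 0.48, with 20 higher and none lower, beside a median of 0.01 for all genes. That median rested on genes with 1 probe: it was 0.50 for 34 of them and 0.13 for the 9 with more.

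The list of macrophage identity genes was split. The receptor chains Fcgr1 (1.43 ± 0.33), which binds IgG with high affinity, and Fcer1g (0.73 ± 0.17), the signalling chain of Fc receptors, were higher together with Lyz2 and Lilrb4a, 4 of 11 in all. Fcgr1 read 1.19, 1.71, 1.72 and 1.10 in order of time, highest on the 2 and 7 h arrays. The lectin gene Clec4n averaged 0.50 ± 0.44. The scavenger receptor genes Cd68 (-0.20 ± 0.09) and Marco (-0.05 ± 0.07), the adaptor gene Tyrobp (-0.18 ± 0.09) and the inhibitory receptor gene Fcgr2b (-0.07 ± 0.17) read below 0 on 1 probe each. Cd68 read -0.17, -0.32, -0.21 and -0.10, below 0 on every array, although it is widely used as a macrophage marker. The list median was 0.13. Whether these probes measure their labelled transcript was not tested. Among 9 transcription factors of myeloid cells the median was -0.08. Irf5, which acts in macrophage activation, was the 1 higher member (0.53, 0.86, 1.05 and 0.39), and Klf4 (0.33 ± 0.19), Cebpa (-0.06 ± 0.11), Runx1 (-0.26 ± 0.05) and Nr1h3 (-0.38 ± 0.07) met neither rule.

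Genes of lysosomes and of iron handling lay mostly above 0. Of 33 lysosomal hydrolases and membrane proteins 12 were higher and none lower, with a median of 0.33. Above 0 on all 4 arrays were 25 of them, beside 2481 of all 8839 genes. Ctss, a cysteine protease of antigen-presenting cells, had the highest mean of all genes: 1.77, 1.66, 1.90 and 1.30, a mean of 1.66 ± 0.26 on 1 probe. Gusb, a lysosomal glucuronidase, read 0.80, 0.88, 0.87 and 0.96 over 3 probes, and Hexa, which degrades gangliosides, 0.68, 0.88, 0.88 and 0.67. Ctsl averaged 0.62 ± 0.02, although its 4 probes ran from -0.22 to 1.10. Ctsc (0.72 ± 0.15), a protease that activates granule enzymes, Asah1 (0.64 ± 0.16), a ceramidase, and Npc2 (0.51 ± 0.06), which carries cholesterol out of lysosomes, were also higher. Acp5, the tartrate-resistant phosphatase of osteoclasts, was at the other end (-0.28 ± 0.04), and Ctsb at -0.14 ± 0.13. The proton pump that acidifies lysosomes gave smaller ratios, with a median of 0.18 over 14 subunits and 2 higher, Atp6v0e (0.40 ± 0.07) and Atp6v1h (0.40 ± 0.13).

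Of 11 genes of the phagocyte oxidase and of iron handling 7 were higher, with a median of 0.54. Cyba, the smaller membrane subunit of the oxidase, read 0.55, 0.53, 0.50 and 0.57, and Ncf4, a cytosolic subunit, averaged 0.43 ± 0.08. Ferritin genes, which store iron, were higher: Ftl1 read 0.66, 0.67, 0.72 and 0.63 over 6 probes and Fth1 0.62, 0.51, 0.45 and 0.56 over 4. Hmox1, which frees iron from heme, averaged 0.75 ± 0.07. Steap3, a ferrireductase, read 0.64, 1.26, 0.45 and 1.12, the widest spread of the list. Slc40a1, the iron exporter ferroportin, averaged -0.25 ± 0.11 and the transferrin receptor gene Tfrc 0.16 ± 0.08, and neither met a rule.

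Presentation on MHC class I was the list with the highest median, 0.73, with 7 of 9 genes higher and all 9 above 0 on every array. The proteasome genes Psmb8, Psmb9 and Psmb10 are 3 of these 7, and the median is the value of Psmb10. B2m, the light chain of class I, read 0.87, 0.88, 1.07 and 1.07 over 3 probes, and H2-D1, a heavy chain, 0.96, 0.99, 1.03 and 0.91. Tapbp, which loads peptide onto class I, read 0.58, 0.68, 0.73 and 0.65, and the peptide transporter subunit Tap2 0.38, 0.53, 0.46 and 0.27, which missed the rule at 21 h. Heavy chain genes are near-identical copies of each other, so a cDNA probe of H2-D1, H2-Q8 or H2-Q10 can report its relatives, and the strains differ in these genes. The 6 class II genes measured had a median of 0.04 with none higher or lower. H2-Aa, a class II chain, read 0.04, 0.30, 0.01 and -0.16, and the invariant chain gene Cd74 0.08, 0.18, -0.05 and 0.08. None of the 6 kept its sign on all 4 arrays, so no direction can be given for class II.

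Psmb8, Psmb9 and Psmb10 encode catalytic subunits that immune cells and interferon add to the proteasome, and can be set beside the subunits whose place they take. All 3, Psmb8 (0.70, 0.75, 0.89 and 0.68 over 7 probes), Psmb9 (0.71, 1.14, 1.13 and 0.34) and Psmb10 (0.56, 0.89, 0.74 and 0.72), were higher. Of the constitutive subunits, Psmb5 read -0.02, -0.03, 0.09 and 0.20 and Psmb7 0.02, -0.06, 0.18 and -0.19. Psmb6 was lower at -0.68, -0.79, -0.34 and -0.61. The 3 immune subunits lay above the 3 constitutive ones on every array. Psmb6 rested on 1 probe and was at -0.31 without the 0 h array, where a further probe had values. The whole proteasome, 45 genes, had a median of 0.09.

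**Figure D3:**
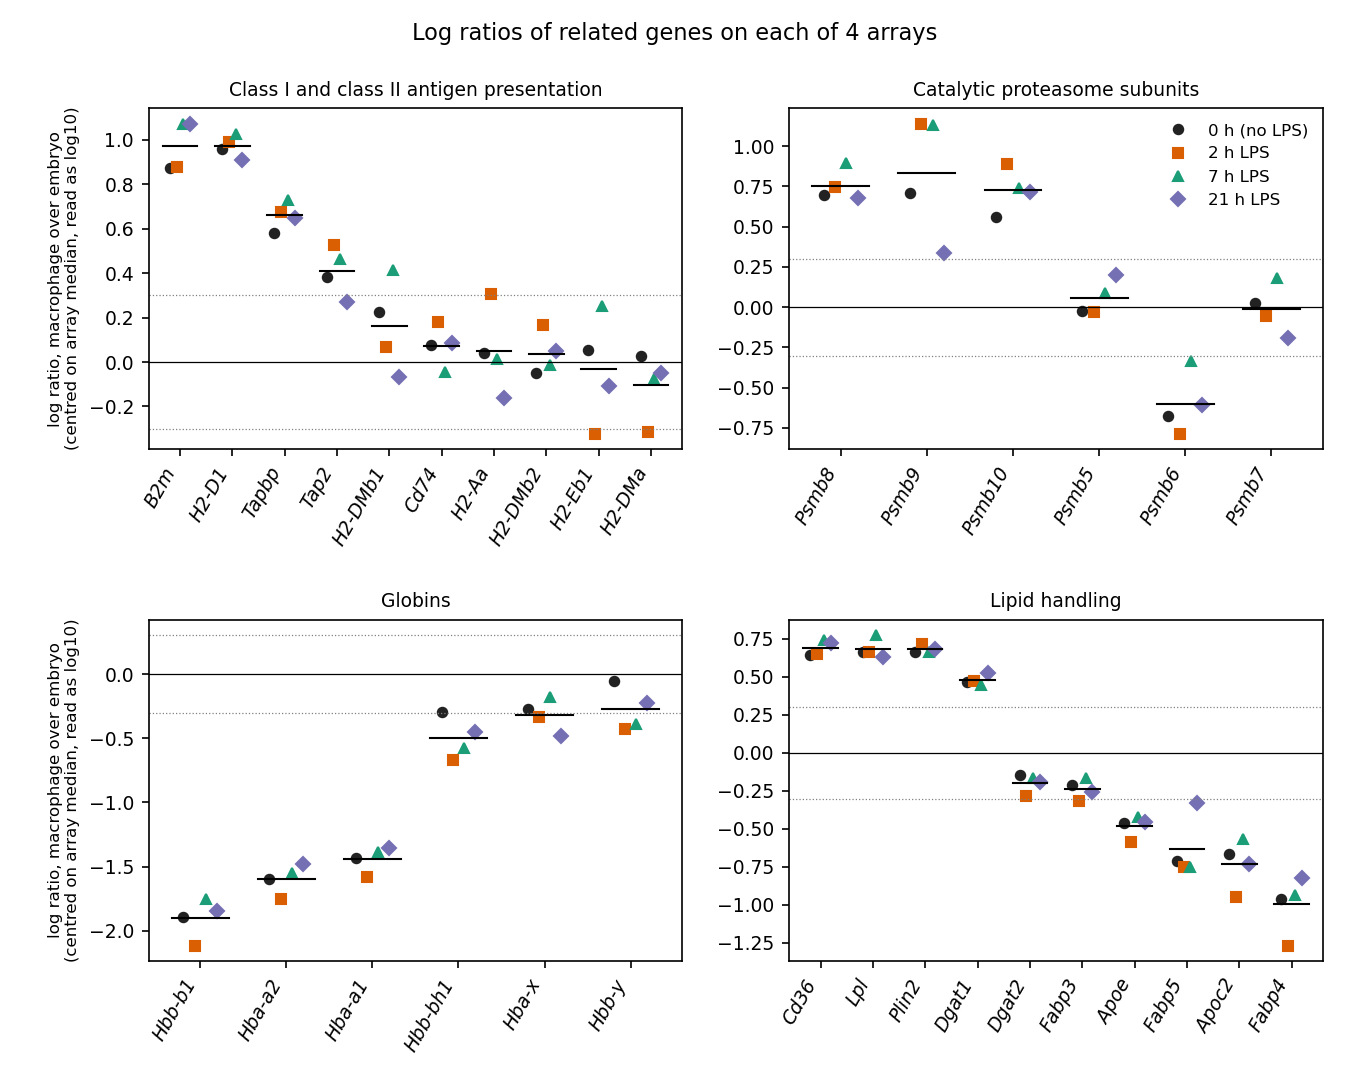
Centred log ratios (vertical axes, read as log10) of related genes on the 0, 2, 7 and 21 h arrays, with a bar at each mean and dotted lines at a 2-fold ratio. B2m, H2-D1 and Tapbp lie above the class II genes, Psmb8 to Psmb10 above Psmb5 to Psmb7, adult globins (Hbb-b1, Hba-a2, Hba-a1) below embryonic ones, and Cd36 to Dgat1 above Apoe to Fabp4.

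Interferon-stimulated genes were high on all 4 arrays, that of cells without LPS included. The list median was 0.46 over 23 genes and read 0.45, 0.46, 0.51 and 0.40 on the 4 arrays in order of time. Of the 23 genes 13 were higher and none lower. Ifi204, of a family that senses DNA, read 1.05, 1.40, 0.98 and 1.37. Irf7, a transcription factor of the interferon response, read 0.75, 1.47, 0.82 and 1.01, with probes at 0.99 and 1.03. Oasl2, of the oligoadenylate synthetase family, read 1.15, 0.98, 1.02 and 0.80, and Rsad2, the antiviral protein viperin, 1.01, 0.90, 0.94 and 0.63. Ifit3, which acts against viral RNA, read 0.67, 0.86, 0.77 and 0.91. Usp18, which removes ISG15, averaged 0.57 ± 0.05. The transcription factor genes Irf9 (0.20 ± 0.14), Stat2 (0.20 ± 0.14) and Irf1 (0.08 ± 0.08) met neither rule, nor did Ifitm2 (-0.16 ± 0.04). Tgtp1, an interferon-induced GTPase on no list, read 1.19, 1.64, 1.48 and 0.69.

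Promoters of these genes were searched for the core of the site of interferon regulatory factors, GAAANNGAA, on both strands, in windows from 250 bases before to 50 after the RefSeq start (GRCm38.p6). It was present in 52.6% of the 19 interferon-stimulated genes with a window, 7.06% of the 7129 measured genes with one and 8.57% of all 27025 windows. This motif was added after the ratios had been seen. The windows of 3 higher genes are shown over the 180 bases before the start because they carry the motif near it, in capitals on either strand.
Oas1a (chr5:120907526-120907705, minus strand): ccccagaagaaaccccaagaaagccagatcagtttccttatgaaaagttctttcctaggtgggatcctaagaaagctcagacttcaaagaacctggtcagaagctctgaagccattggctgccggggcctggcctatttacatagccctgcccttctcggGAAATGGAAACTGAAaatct
Rsad2 (chr12:26456453-26456632, minus strand): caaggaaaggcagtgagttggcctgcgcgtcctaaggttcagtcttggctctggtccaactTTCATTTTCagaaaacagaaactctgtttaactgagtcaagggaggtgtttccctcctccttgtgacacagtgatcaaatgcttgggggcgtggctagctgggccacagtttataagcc
Ifit3 (chr19:34583349-34583528, plus strand): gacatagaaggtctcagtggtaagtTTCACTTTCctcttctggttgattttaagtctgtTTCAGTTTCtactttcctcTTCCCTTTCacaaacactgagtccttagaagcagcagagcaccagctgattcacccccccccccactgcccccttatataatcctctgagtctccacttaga
The Oas1a window holds the motif in 2 overlapping places, 20 and 14 bases before the start, Rsad2 at 119, and Ifit3 3 times, at 155, 121 and 102. A match is a string of letters and no measured binding.

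Genes of the actin skeleton and of adhesion held the most higher genes of any list, with 14 of 29 higher, none lower and a median of 0.36. Actb, cytoplasmic actin, read 0.59, 0.44, 0.60 and 0.54, and Tmsb4x, which binds actin monomers, 0.65, 0.49, 0.62 and 0.73. The Arp2/3 subunits Arpc1b (0.58 ± 0.06), Arpc5 (0.54 ± 0.16) and Arpc2 (0.38 ± 0.05), which nucleate branched actin, were all higher. Lgals3, a galectin of macrophages, averaged 0.53 ± 0.10 with 3 probes from -0.12 to 1.03, and the intermediate filament gene Vim 0.51 ± 0.05. S100a4 averaged 0.85 ± 0.16, but its 2 probes read -0.11 and 1.82. Tmsb10, a relative of Tmsb4x, was at -0.19 ± 0.06 over 8 probes and Vcl at -0.28 ± 0.04. Tmsb4x and Tmsb10 thus stood on opposite sides of 0.

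Lipid genes divided into a higher and a lower set of 4 each among 14, with a median of -0.01. Cd36, the scavenger receptor for oxidised lipoprotein, read 0.64, 0.65, 0.75 and 0.72 over 7 probes, and Lpl, lipoprotein lipase, 0.67, 0.66, 0.77 and 0.63. Plin2, which coats lipid droplets, averaged 0.68 ± 0.03, and Dgat1, the last step of triglyceride synthesis, 0.48 ± 0.03. These genes take up and store lipid. Lower were Apoe (-0.46, -0.58, -0.43 and -0.45), an apolipoprotein that macrophages and liver secrete, and Apoc2 (-0.73 ± 0.16). The fatty acid binding protein genes Fabp5 (-0.71, -0.75, -0.75 and -0.33), of skin among other tissues, and Fabp4 (-0.96, -1.27, -0.94 and -0.82), of fat and macrophages, were lower too.

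Among 17 chemokine, cytokine and receptor genes 4 were higher: Ccl9 (1.01, 1.22, 0.69 and 1.12), a chemokine of myeloid cells, Ccl6 (0.50 ± 0.10, 7 probes), Pf4 (0.59 ± 0.08) and the TNF receptor gene Tnfrsf1a (0.50 ± 0.14). The median was 0.02, near that of all genes. Cxcl12, a chemokine of stroma, averaged -0.56 ± 0.27. The genes of the cell cycle and of DNA replication had a median of 0.11 over 42. Of these, 22 lay above 0 on all arrays and 8 below, beside 2481 and 2568 of all 8839 genes. Ccnd1, cyclin D1, stood out at 0.77, 0.84, 0.78 and 0.75 with all 3 probes between 0.77 and 0.80. Its relatives Ccnd2 (-0.29 ± 0.09) and Ccnd3 (-0.21 ± 0.06) lay below 0 on every array. Pcna, the clamp of DNA polymerase, averaged 0.43 ± 0.05, and Mki67, a protein of cycling cells, 0.27 ± 0.20.

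Markers of other blood cells lay nearer to 0. Over 38 genes of the other leukocyte lists the median was -0.11, with 2 higher, Pf4 and Ostm1 (0.48 ± 0.11), and 5 lower. The 2 higher are 5.26% of the list, beside 3.19% of all genes, and the 5 lower 13.2%, beside 4.45%. The lower ones were Cd24a (-0.78 ± 0.14, 8 probes) and Cd79b (-0.64 ± 0.22) of B cells, the mast cell tryptase gene Tpsb2 (-0.55 ± 0.17), Mmp9 (-0.48 ± 0.17) and Car2 (-0.59 ± 0.10). The neutrophil granule genes S100a8 (-0.16 ± 0.14), S100a9 (-0.28 ± 0.10), Camp (-0.21 ± 0.09), Mpo (-0.05 ± 0.14) and Elane (0.24 ± 0.02) met neither rule. The list median for 9 granule genes ranged from -0.21 to -0.03 over the arrays. T and NK cell genes (6 measured) had a median of -0.09. None was higher or lower, but 6 genes are too few to tell that from the shares of all genes.

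Across 340 genes of the embryo tissue lists 107 were lower and 3 higher (Ckb, Igf2bp1 and Lpl), with a median of -0.26. The liver list had the lowest median, -0.53, with 12 of 23 lower. Besides Alb these included Afp, the fetal counterpart of albumin (-1.30, -1.62, -0.87 and -1.14), and Itih3, an inhibitor chain of plasma (-1.27, -1.88, -1.48 and -1.19). The fibrinogen chains Fga (-1.41 ± 0.22), Fgg (-1.08 ± 0.30) and Fgb (-0.97 ± 0.10) were lower together. The transport proteins Ttr (-0.82 ± 0.19), Apoa1 (-0.75 ± 0.11) and Rbp4 (-0.59 ± 0.09) followed. Other liver genes such as Apoa2 (-0.15 ± 0.11), Hpx (-0.19 ± 0.08) and Cyp2e1 (0.18 ± 0.25) met neither rule.

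Red cell genes divided by the kind of globin. Among adult globins Hba-a2 read -1.60, -1.76, -1.55 and -1.48 over 9 probes and Hba-a1 -1.43, -1.58, -1.39 and -1.35 over 15; these copies are nearly identical and their probes cannot be told apart. The embryonic globins, which the first red cells make in the yolk sac, lay much closer to 0. Hbb-bh1 read -0.30, -0.67, -0.58 and -0.45, Hba-x -0.27, -0.33, -0.18 and -0.48, and Hbb-y -0.05, -0.42, -0.39 and -0.23. No array of an embryonic globin reached the range of an adult one. Car1, a carbonic anhydrase of red cells, averaged -1.63 ± 0.40, and Alas2, the first enzyme of erythroid heme synthesis, -0.61 ± 0.06. The transcription factor genes Gata1 (0.17 ± 0.10), Tal1 (0.16 ± 0.13) and Klf1 (-0.20 ± 0.10) and the anion exchanger gene Slc4a1 (0.17 ± 0.08) met neither rule, and the median of the 20 red cell genes was -0.18.

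Skeletal muscle had the most lower genes among the tissue lists, 21 of 34, with a median of -0.52 and 30 below 0 on all arrays. Myl1, a myosin light chain of fast fibres, read -1.61, -1.72, -1.44 and -1.56, and Mylpf, another, -1.01, -1.14, -1.08 and -1.12. Ckm, the creatine kinase of muscle, averaged -1.11 ± 0.11, Tpm2, a tropomyosin, -0.98 ± 0.14, and Ttn, the giant protein of the sarcomere, -0.84 ± 0.17. Mybpc1, a thick filament protein of slow fibres, spread from -1.94 at 2 h to -0.66 at 7 h. Myod1, the factor that commits cells to muscle, read 0.11 ± 0.12 and the acetylcholine receptor gene Chrna1 -0.09 ± 0.09. The 14 heart genes had a median of -0.25 with 4 lower, among them Nppb (-1.65 ± 0.34), a natriuretic peptide; Nppa, its relative, read 0.04 ± 0.10.

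The E-box CAGCTG, a site of the MyoD family, was present in 59.3% of 27 muscle promoters with a window, beside 15.1% of all measured genes with one and 16.1% of all windows. It is its own reverse complement, so both strands give the same matches. A high share was not particular to muscle. The E-box was in 42.9% of 14 heart, 14 cartilage and bone and 7 macrophage identity promoters, and in 75% of 4 of eye lens and retina. In fetal liver it was in 5.26% of 19 and among erythroid genes in 7.69% of 13. The windows of 3 lower genes are shown, with the E-box in capitals.
Mylpf (chr7:127211428-127211607, plus strand): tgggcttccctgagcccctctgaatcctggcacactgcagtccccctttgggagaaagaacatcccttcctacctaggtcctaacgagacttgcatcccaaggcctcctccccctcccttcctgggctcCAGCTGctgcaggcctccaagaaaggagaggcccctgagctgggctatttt
Mybpc1 (chr10:88605153-88605332, minus strand): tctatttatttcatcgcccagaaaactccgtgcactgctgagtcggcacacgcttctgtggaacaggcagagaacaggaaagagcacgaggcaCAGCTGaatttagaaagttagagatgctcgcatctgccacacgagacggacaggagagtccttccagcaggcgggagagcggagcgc
Atp2a1 (chr7:126463074-126463253, minus strand): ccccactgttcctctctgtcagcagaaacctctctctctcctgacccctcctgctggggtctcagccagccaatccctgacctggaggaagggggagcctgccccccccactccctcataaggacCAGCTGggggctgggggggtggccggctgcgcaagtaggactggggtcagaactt
The E-box began 51 bases before the start in Mylpf, 87 in Mybpc1 and 55 in Atp2a1, the calcium pump of fast fibres, whose ratio averaged -0.68 ± 0.13.

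Connective tissue and skeleton came next. Of 36 matrix genes 18 were lower, with a median of -0.50, and of 18 cartilage and bone genes 10, with a median of -0.45. The chains of type I collagen, the main protein of skin and bone matrix, read -1.48, -1.98, -1.39 and -1.41 (Col1a1) and -1.63, -1.77, -1.53 and -1.21 (Col1a2). Postn, a matrix protein of periosteum and tendon, read -1.43, -1.66, -1.29 and -1.42. Col2a1 of cartilage averaged -1.43 ± 0.17, Col6a1 -1.35 ± 0.19, Sparc, which binds collagen, -1.26 ± 0.19, and Lox, which cross-links it, -1.34 ± 0.49. Serpinh1, the collagen chaperone, averaged -0.92 ± 0.13. Over 24 collagen genes 15 were lower, with a median of -0.59. Col3a1, however, read -0.01, -0.24, -0.33 and -0.12, with 3 probes from -0.32 to 0.07, and receptors of mesenchyme, Pdgfra (0.02 ± 0.11) and Pdgfrb (0.07 ± 0.10), were near 0. Low ratios were thus not general to the list.

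Skin genes had a median of -0.33 with 11 of 31 lower. Krt1 (-1.48, -1.47, -1.27 and -1.31), a keratin of the upper epidermis, and the basal keratin genes Krt15 (-0.95 ± 0.08) and Krt14 (-0.74 ± 0.08) were lower. So were Jup (-0.68 ± 0.11) and Perp (-0.61 ± 0.07) of desmosomes. Lor, which makes up the cornified envelope, averaged -0.06 ± 0.16, with 5 probes from -0.60 to 0.67. In the nervous system 9 of 34 genes were lower and 1 higher, with a median of -0.16. Uchl1 (-1.14 ± 0.24), a deubiquitinase of neurons, Gap43 (-1.12 ± 0.20) of growth cones, and Stmn3 (-0.92 ± 0.12) and Dcx (-0.69 ± 0.24), which bind tubulin or microtubules, were lower. Ckb, the creatine kinase of brain, was higher (0.39, 0.51, 0.66 and 0.63). The synaptic genes Vamp2 (0.14 ± 0.08) and Syp (0.09 ± 0.09) met neither rule.

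Genes of fetal growth, many of them imprinted, had a median of -0.35 with 6 of 15 lower. Mest read -1.01, -1.40, -1.17 and -0.95, the noncoding Meg3 -1.05, -1.30, -1.04 and -1.01, and Igf2, the fetal growth factor, -0.98, -1.06, -0.77 and -0.83. Cdkn1c, an inhibitor of the cell cycle, was near 0 (0.00 ± 0.07). Igf2bp1, a binding protein of Igf2 mRNA, was the 1 higher gene (0.58 ± 0.13), with probes at 0.14 and 1.01. Of 28 developmental factors 5 were lower, 17.9% beside 4.45% of all genes. They were led by the Wnt antagonist gene Sfrp2 (-1.22 ± 0.37), the growth factor gene Ptn (-0.96 ± 0.20, 8 probes) and Gli3 (-0.72 ± 0.34), a factor of Hedgehog signalling. The 7 measured Hox genes had a median of -0.07. None was lower, but 7 genes are too few to tell that from the share of all genes.

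Lists of further organs and tissues stood nearer to 0 than those of liver, muscle or matrix, and some held a few genes of strongly low ratio. Among 20 gut and pancreas genes, with a median of -0.04, the zymogen gene Ctrb1 (-1.06 ± 0.10, 12 probes), Fabp2 (-0.83 ± 0.24) of enterocytes and the elastase gene Cela2a (-0.64 ± 0.11) were lower. Sftpc, a surfactant protein of the lung, averaged -0.74 ± 0.17 over 3 probes, the 1 lower of 9 lung genes. Cdh1, the cadherin of epithelia, averaged -0.83 ± 0.23, while the other 16 genes of epithelial junctions met neither rule. This 1 lower gene is 5.88% of the list, near the 4.45% of all genes. In vessels 1 of 22 genes was lower, a share near that of all genes, Rgs5 (-0.42 ± 0.10) of pericytes. The 6 kidney genes held none, but they are too few to tell that from the share of all genes.

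**Figure D4:**
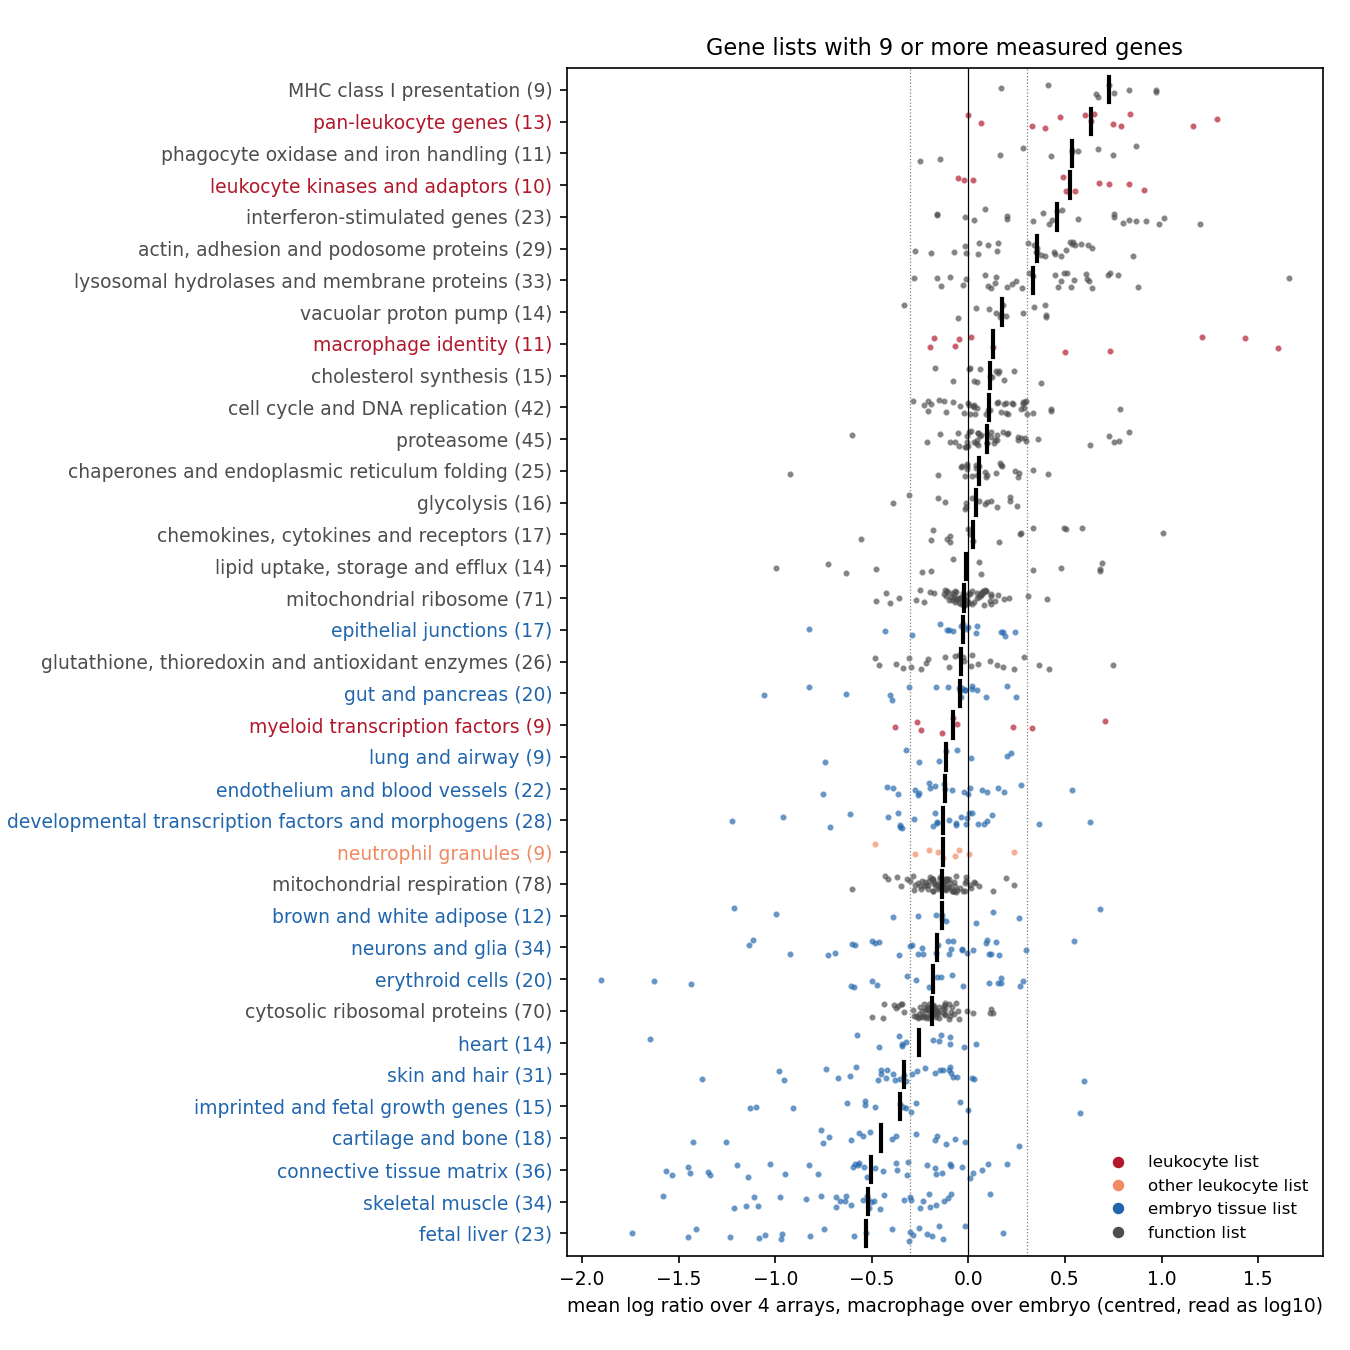
Mean log ratio over 4 arrays (horizontal axis, read as log10) of every measured member of each tissue, cell type or function list with 9 or more measured genes (gene families such as the collagens are not drawn); the number measured stands in brackets. Points are genes, coloured by the kind of list, black bars are list medians, and dotted lines mark a 2-fold ratio. The medians drawn run from 0.73 for MHC class I presentation to -0.53 for fetal liver.

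Lists of genes that all cells need had medians from -0.19 to 0.11. The 70 cytosolic ribosomal protein genes had a median of -0.19. The 3 lower genes are a share near the 4.45% of all genes. Of the 70 genes, 62 lay below 0 on all 4 arrays, beside 2568 of all 8839 genes. The median ran from -0.28 at 2 h to -0.12 at 7 h. Rpl22 (-0.44 ± 0.09) was among the lower ones, and Rpl3l, a muscle form, read -0.50 ± 0.17. Mitochondrial respiration was alike, with a median of -0.14 over 78 genes, 53 below 0 on all arrays and 3 lower, again near the share of all genes. Atp5c1, of the ATP synthase, averaged -0.60 ± 0.13, but its 3 probes ran from -1.53 to -0.12, and the median probe gave -0.17. The mitochondrial ribosome (71 genes) had a median of -0.02, glycolysis (16 genes) 0.04 and cholesterol synthesis (15 genes) 0.11. Gapdh, a glycolytic enzyme, read 0.24, 0.20, 0.20 and 0.21 over 12 probes. Prdx1, a peroxidase, was higher at 0.42 ± 0.06 over 9 probes, and Ldhb, the lactate dehydrogenase form of heart, lower at -0.39 ± 0.06 over 6.

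The most extreme ratios outside these lists came from genes with 1 probe. Rras, a small GTPase, had the lowest mean of all genes and read -2.22, -2.69, -2.05 and -1.89. Fstl1, a secreted glycoprotein, averaged -1.96 ± 0.46, Gas1, a membrane protein that Hedgehog binds, -1.74 ± 0.14, and Nedd4, a ubiquitin ligase, -1.69 ± 0.19. Kif21b, a kinesin, averaged -2.03 ± 0.30, but was at -0.88 without the 21 h array, where a further probe had values. Xist, the RNA of the inactive X, read 1.18, 1.98, 2.06 and 0.85 on 1 probe, and AW112010 1.47, 1.84, 1.49 and 1.47. How far probes of a gene agreed bears on all of these. Of 91 higher genes with at least 2 probes, all probes passed the size rule in 59 and probes took both signs in 15. Of 157 lower genes these numbers were 82 and 11. Sesn1, at -1.03 ± 0.10, had probes at -2.22 and 0.16.

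Some genes with high means differed widely between arrays. Ptger4, the prostaglandin E2 receptor EP4, read 0.68, 1.76, 1.38 and 0.11 over 3 probes, so it met no rule at a mean of 0.98 ± 0.73. Msln read 1.10, 2.08, 1.60 and 0.10, and Pigh 0.57, 2.47, 1.36 and 0.07, both on 1 probe. These genes were high at 2 and 7 h and near 0 at 21 h. Each array was 1 sample, so LPS time and the array itself cannot be told apart. In all, 483 genes passed the size rule upwards at 0, 2 and 7 h, and 201 of them missed it at 21 h, with a median there of 0.08. Upwards, 51 genes missed it at 0 h only, 10 at 2 h only and 66 at 7 h only. Downwards, 37 genes missed it at 0 h only, 6 at 2 h only, 140 at 7 h only and 92 at 21 h only. The array that lost most genes was thus that of 21 h upwards and that of 7 h downwards.

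Promoters of higher and lower genes both differed from those of all measured genes in CpG and TATA content. The ratio of observed to expected CpG had a median of 0.60 in 207 higher genes with a window and 0.53 in 294 lower ones, beside 0.73 in the 7129. TATAAA was present in 15% of higher and 15.6% of lower genes, beside 9.26%. GAGGAA, a core that the myeloid factor PU.1 of the ETS family binds, was in 29.0% and 28.6%, beside 26.4%. AGATAA, of GATA factors, was in 11.1% and 10.9%, beside 7.57%, CAGCTG in 18.4% and 20.4%, beside 15.1%, and GGGCGG, of the SP1 family, in 55.1% and 49.0%, beside 58.4%. Higher and lower genes lay on opposite sides of all measured genes for GAAANNGAA, with 9.66% (20 genes) and 5.44% (16 genes) beside 7.06%. The higher genes include the 13 higher interferon-stimulated genes above, and GAAANNGAA was added after the ratios had been seen. Shares of TCACGTGA, of the TFEB family, also lay on opposite sides, with 2.42% and 1.36% beside 1.71%, on 5 and 4 genes. Windows of 2 of the highest genes that hold GAGGAA are shown, with it in capitals on either strand.
Ctss (chr3:95526606-95526785, plus strand): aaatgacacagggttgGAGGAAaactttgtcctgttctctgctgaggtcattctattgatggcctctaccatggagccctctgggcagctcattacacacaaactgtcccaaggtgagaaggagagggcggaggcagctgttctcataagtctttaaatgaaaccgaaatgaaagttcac
Fcgr1 (chr3:96293970-96294149, minus strand): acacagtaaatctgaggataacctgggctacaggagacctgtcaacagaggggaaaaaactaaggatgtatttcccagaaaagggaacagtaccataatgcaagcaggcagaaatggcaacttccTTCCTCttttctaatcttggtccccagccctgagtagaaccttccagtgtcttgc
In Ctss it began 164 and in Fcgr1 55 bases before the start. These counts are descriptions, and no binding was measured here.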

How the data were processed

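Log ratios of macrophage against embryo RNA were analysed for the 0, 2, 7 and 21 h arrays, each of 1 sample; the 0.5 h array was left out. Values are the authors' deposited log ratios, 1 for each probe of an array, read here as log10. Their base and centring stay unknown, and their direction is not stated; macrophage over embryo is likely from the channel labels and the marker genes. RNA extraction and amino-allyl labelling with Cy3 are per the labels; how arrays were scanned, background-corrected and normalized is not given in the sources used here. Deposited medians of the 5 arrays lay between 0.00 and 0.07. Precision is limited by the number of arrays, and signal over background is unknown.

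Of the probes, 14759 had 1 symbol in the platform annotation and were named, 170 had several, and 4899 were unlisted. Symbols were updated through Entrez identifiers in RefSeq GRCm38.p6, where 14628 matched. Probes with a value on all 4 arrays were averaged per gene, and the median over genes was subtracted from each array. A gene was higher or lower when it lay at least 0.301 from 0 in that direction on each array. No test was run. Text names genes by rule: 5 markers, the 25 highest and lowest genes with at least 2 probes and the 15 with 1 probe, the 4 highest and lowest of each list, and the 10 called genes of largest SD; other members named were chosen after their values were seen. Members and lists were chosen with earlier results of these data known.

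Alternatives were other centring, scaling, probe joining, missing values, arrays, size rules and subtraction of a running median along probe numbers. Leaving out the last probes was added after seeing the data. Steps were tested on simulated data. Promoters are from RefSeq. Python 3.11.15, numpy 2.4.6, pandas 2.3.3 and matplotlib 3.10.9 were used.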

Additional observations from a re-analysis of the deposited data

Results flagged for a closer look

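Of 52 list medians and marker genes checked for 1 array far from the other 3, 2 passed a cut-off on the gap to the next array. That cut-off passes about 1 in 20 among replicates of a group, which these arrays are not. The 2 of 52 are no larger a share than that. The median of 5 eye lens and retina genes was -0.106 at 7 h, beside -0.302 to -0.291 on the other arrays. The median of 17 epithelial junction genes was 0.0029 at 7 h, beside -0.0625 to -0.0556. Both lists were nearer to 0 at 7 h, and neither held a higher gene.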

How the results depend on the processing

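No list median past the size rule on each array changed sign, nor did any called gene among the 608 named. Other called genes were not checked for a change of sign. Set by the mean of the 4 arrays, 866 genes were higher and 765 lower. A size of 0.5 left 89 and 181, and a size of 1, which is 2-fold if the logs are base 2, left 7 and 32. With at least 2 probes per gene, 95 were higher and 168 lower among 3121 genes, and the median was 0.125 for leukocyte lists and -0.305 for embryo lists. Leaving out 1 array gave 292 to 489 higher genes (489 without the 21 h array), 397 to 537 lower genes, leukocyte medians of 0.381 (without the 2 h array) to 0.506 and embryo medians of -0.259 to -0.232. Adding the 0.5 h array gave 196 higher and 321 lower genes among 8452. Of the main calls measured there, 188 of 276 higher and 308 of 391 lower genes were kept. With the running median removed, 240 of the 282 higher and 332 of the 393 lower genes kept their call. Without probes above number 17500 the counts were 282 and 392. Over all alternatives, 1061 of 1199 values of 86 list medians and 7881 of 8121 values of 608 named genes moved by less than their SD over arrays. Medians near 0, such as those of class II presentation, lipid genes, chemokines and B cells, changed sign with centring or other settings. No paired analysis was possible because each group holds 1 array. Depth limits could not be given without intensities.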

Other observations

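The 0.5 h array entered the correlations between arrays and the alternative that added it, but none of the mean ratios or calls of the 4 arrays. On it the markers read 0.64 for Lyz2, 1.39 for Lcp1, 1.58 for Lilrb4a, -1.17 for Hbb-b1 and -1.19 for Alb. All were on the side of 0 they had on the other arrays. Hba-a2 read -0.26 there, and Gas1 0.83, where its mean over the 4 arrays was -1.74.

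Further families gave values not described above. Of 142 solute carriers 3 were higher and 3 lower, with a median of 0.06. Each is 2.11% of the family, beside 3.19% higher and 4.45% lower among all genes. The annexins, which bind membranes in a calcium-dependent way, had a median of 0.28 over 11 genes with 3 higher, and the galectins 0.25 over 6 genes with 2 higher. Of 11 genes of the TNF superfamily and its receptors 2 were higher, with a median of 0.24. Splicing factors (55 genes) had a median of 0.03 with none higher or lower.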
